A study of Mus musculus with 4 samples.

Results

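The type I interferon response genes are a list of 40 mouse genes that cells switch on after type I interferon binds its receptor. They were taken from a fixed list of gene names and were not chosen by any value measured here. Of the 40, 38 were measured in both RNA matrices, which hold 32285 genes, and Mx1 and Mx2 were not analysed here.

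Single-cell RNA and T cell receptor libraries were made with the 10x 5′ chemistry from a sort for CD4 T cells out of mouse tumours, 30 days after the tumours were inoculated. The hosts were wild-type B6 mice with the Thy1.2 allele that bore a chimeric tumour, and both groups were given Thy1.1 Pmel-1 T cells with adjuvant. Pmel-1 cells are CD8 T cells with a transgenic receptor for a melanocyte antigen. One group received them as Tc1 cells, the interferon-gamma type of CD8 T cell, and the other as Tc9 cells, the interleukin-9 type. Each group's material was a pool of tumours from 3 animals, there was no group without transferred cells, and each pool gave 1 RNA and 1 receptor library. With 1 library per group no test was possible, and every interval below is a 95% interval of counting error alone, which leaves out the differences between mice.

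Type I interferons are released when a cell senses foreign or misplaced nucleic acid, and nearly every cell carries their receptor. The receptor activates STAT2, which acts with IRF9 in a complex that binds a short DNA element near the start of the target genes. Their products bind or degrade RNA, tag proteins or block viral budding, and several, among them the factors IRF7, IRF9 and STAT2, raise the response further. In tumours the response is known in macrophages and dendritic cells, and also in T cells.

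The element bound by the complex of STAT2 and IRF9 is what many of these genes have in common in sequence, so the promoters of 5 of them are shown. The core searched was GAAA, any 2 bases, and GAAA again, on either strand. The windows ran from 250 bases before to 50 bases after a listed transcription start of each gene (GRCm38.p6). Some of these starts lie inside the RefSeq span of the gene, as for Slfn5, Ifit3 and Ifit1bl1, and 23 genes of the list had 1 window while others had more. Capitals mark the matches, overlapping ones joined into 1 run, and each line runs 5′ to 3′ along the gene's strand. The Isg15 stretch is chr4:156200852-156200911 on the minus strand and holds 3 overlapping matches. The Ifit1 stretch, chr19:34640770-34640829 on the plus strand, holds 2 matches and lies within the RefSeq spans of the neighbouring genes Ifit1bl1 and Ifit1bl2. The Rsad2 stretch is chr12:26456528-26456587 on the minus strand, with 1 match. The Bst2 stretch is chr8:71537558-71537617 on the minus strand, with 2 overlapping matches. The Trim30a stretch, with 1 match, is chr7:104465194-104465244 on the minus strand and ends at the base before the gene's start.
Isg15: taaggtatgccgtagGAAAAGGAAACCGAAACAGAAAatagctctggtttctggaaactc
Ifit1: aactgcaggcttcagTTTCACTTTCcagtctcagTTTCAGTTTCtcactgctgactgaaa
Rsad2: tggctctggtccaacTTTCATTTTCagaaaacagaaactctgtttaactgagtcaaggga
Bst2: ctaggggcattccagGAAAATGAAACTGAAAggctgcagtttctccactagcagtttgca
Trim30a: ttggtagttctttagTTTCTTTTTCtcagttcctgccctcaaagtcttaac

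Of the 30 listed genes with a promoter window, 18 held the motif in at least 1 window, 60%, against 3.99% of all 27025 genes with a window of the same length. Among the genes with a match were Ifit1, Ifit3, Ifit3b and Ifit1bl1, which neighbour each other, and Oas1a, Oas1g and Oas3. Irf7, Irf9, Oasl1 and Oasl2 had no match to these letters in their windows. A match describes the sequence only and does not show that the factor was bound in these cells.

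The Tc1 library held 13406 barcodes and the Tc9 library 8449, of which 11933 and 8204 passed the filters, and 148 barcode sequences occurred in both. Barcodes were sorted into cell gates by marker UMIs (unique molecular identifiers, counts of captured RNA molecules), with no interferon-induced gene in any rule. The labelled CD4 T cells made up a small share of the Tc1 library: 1243 barcodes met the CD4 rule and 148 the CD4 Foxp3 rule, against 2196 in the CD8 gate and 2146 in the macrophage gate. In the Tc9 library the same gates held 3694, 616, 221 and 26 barcodes. Barcodes carrying the 1 receptor beta chain found in at least 3 barcodes of each library form the shared-receptor gate, with 48 and 482 barcodes, and whether this is the transgenic Pmel-1 chain was not established here. In this gate Cd8a stood at 528 CPM (UMIs of the gene scaled to the gate's total, so that 3081 CPM is 0.308% of all UMIs) and Cd4 at 4.08 in Tc1, while in Tc9 Cd8a was 196, Cd4 46.5 and Foxp3 65.8. The Tc9 CD8 gate also held Foxp3 RNA, at 146 CPM against 7.01 in Tc1. The macrophage, dendritic, NK, fibroblast and endothelial gates were defined by their markers, so those markers give no separate check of what the cells are. The melanoma gate had 181 barcodes in Tc1 and 0 in Tc9.

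Summed over the 38 genes, the interferon response took its largest share of RNA in Tc1 macrophages and its smallest in Tc9 NK cells, and within Tc1 in melanoma cells. Tc1 macrophages stood at 6904 CPM (6865 to 6944), Foxp3 cells at 3362 (3264 to 3463) and CD4 cells at 3081 (3035 to 3128). Dendritic cells were at 2397 CPM, CD8 cells at 2135 and melanoma cells at 699 (682 to 716). In the Tc1 gates of fewer than 50 barcodes, endothelial cells stood at 3112, fibroblasts at 2938, NK cells at 1208 and shared-receptor cells at 933. The intervals of the endothelial and CD4 gates overlapped, as did those of the CD4 and fibroblast gates, and the macrophage interval lay above all others.

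The Tc9 library had another order of gates. Its range is not set against that of Tc1, because the Tc9 melanoma gate was empty and the Tc9 macrophage gate had 26 barcodes. Foxp3 cells stood at 2037 CPM (1997 to 2077), fibroblasts at 1996 (1880 to 2118), CD8 cells at 1487 (1433 to 1543), shared-receptor cells at 1424 (1390 to 1459), CD4 cells at 1318 (1303 to 1333) and NK cells at 569 (500 to 646). Foxp3 cells and fibroblasts had overlapping intervals, as had CD8 and shared-receptor cells. The small Tc9 endothelial, macrophage and dendritic gates stood at 2237, 1448 and 988 CPM. Among the T cells of both libraries the Foxp3 gate was the highest, but in Tc1 barcodes without macrophage, melanoma or haemoglobin UMIs the CD4 gate stood at 2484 CPM and the Foxp3 gate, with 21 barcodes, at 2347. Ifi27l2a, an interferon-induced gene, alone was 48.4% of the Foxp3 sum in Tc1 and 49.0% in Tc9. Without the 3 genes that gave most to each sum, the Tc1 Foxp3 gate stood at 1373 CPM, below the Tc1 CD4 gate at 1673.

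**Figure D1:**
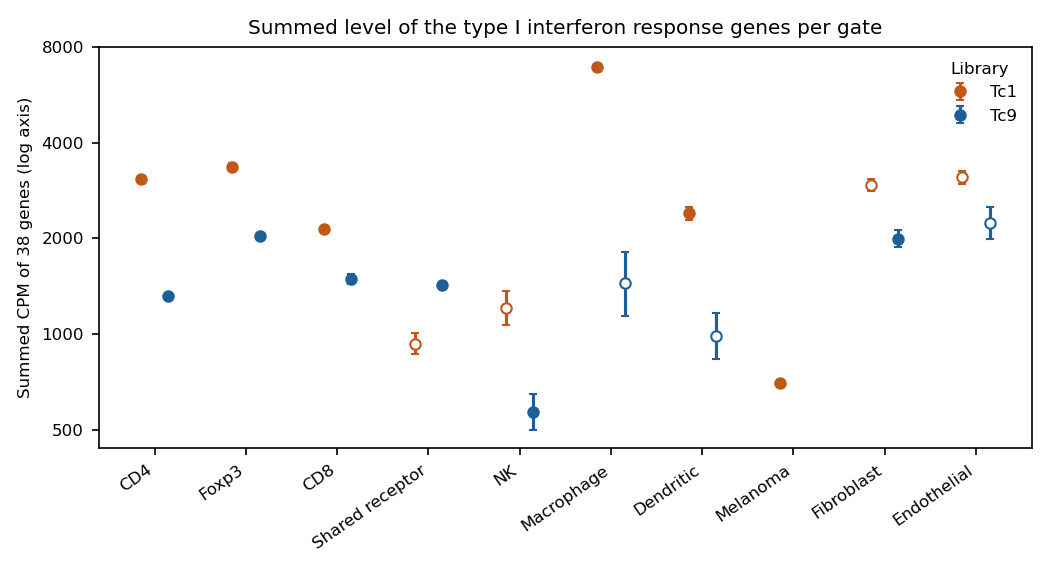
Summed CPM of the 38 genes (log axis) in each cell gate, with Tc1 in orange and Tc9 in blue; open circles mark gates of fewer than 50 barcodes and bars are 95% counting intervals. Macrophages were the highest Tc1 gate at 6904 CPM, the shared-receptor gate alone was higher in Tc9, and no Tc9 melanoma barcodes were found.

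Within Tc1, many members set macrophages apart from the other gates, and almost none did so for a T cell gate. A gene was taken to set a gate apart when it reached at least 10 CPM there and at least 2-fold the level of every other gate of at least 50 barcodes. By this rule 13 members set Tc1 macrophages apart, while 4.57% of all genes did. When the gates of at least 20 barcodes were also compared, 8 members did, and 2.41% of all genes. The CD4, CD8, dendritic and melanoma gates of Tc1 had 0 such members, and 1.07%, 0.633%, 3.92% and 14.5% of all genes. Ifi204, a sensor of DNA, was at 233 CPM in macrophages and 35.7 in the next of these gates, the CD4 gate, but at 126 in the 34 Tc1 fibroblasts. The oligoadenylate synthetases, which activate the RNA-cutting enzyme RNase L, gave 4 of the 13. Oas1a stood at 183 CPM against 49.8 in the next gate, Oas1g at 51.0 against 11.7, Oas2 at 39.2 against 8.65 and Oas3 at 50.2 against 23.8. Their relative Oasl2 was at 121 CPM against 27.7 in dendritic cells, and at 67.3 in the 36 Tc1 endothelial cells.

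The other 7 covered several roles. Isg15, a ubiquitin-like modifier, was at 519 CPM in Tc1 macrophages and 195 in the next gate, and Irf7, the factor that drives further interferon production, at 285 against 137 in dendritic cells. Ifit3 and Ifit2, which bind foreign RNA, were at 88.4 against 29.2 CPM and 71.2 against 27.4. Rsad2, the antiviral enzyme viperin, was at 117 CPM against 38.4, Rtp4 at 169 against 61.1, and Dhx58, a cytoplasmic RNA sensor, at 50.5 against 16.2. In the small Tc1 endothelial gate Rtp4 was at 144.99 CPM, Rsad2 at 89.8 and Ifit2 at 36.2, so that these 3, with Ifi204 and Oasl2, did not meet the rule once such gates were compared. With gates of at least 20 barcodes included, 30 of the 38 members had their highest Tc1 level in macrophages, and of the rest 4 were highest in endothelial cells. The highest gate was found for the members only, so no share of all genes stands beside this count. Bst2, the membrane protein tetherin, was among those highest in endothelial cells, at 1227 CPM there, 745 in fibroblasts and 621 in macrophages.

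Against gates of at least 50 barcodes, 1 member set the Foxp3 gate apart in each library, and neither case held in all settings. Isg20, an RNA exonuclease, was at 143 CPM in Tc1 Foxp3 cells and 57.6 in Tc1 CD8 cells, where 1.83% of all genes met the rule for the Foxp3 gate. In barcodes without UMIs of other cells the order of Isg20 was the reverse, at 40.5 CPM in the 21 Tc1 Foxp3 barcodes and 75.6 in Tc1 CD8 cells. In Tc9 it was Oas1a, at 18.8 CPM in Foxp3 cells and 7.47 in CD8 cells (0.699% of all genes). With the gates of at least 20 barcodes compared, 0 members set Tc9 Foxp3 cells apart (0.334% of all genes), because Oas1a was at 26.5 CPM in dendritic and 18.8 in macrophage barcodes, on 4 UMIs and 1 UMI. In the Tc9 CD4, CD8, shared-receptor and NK gates 0 members met the rule, with 0.361%, 0.483%, 0.738% and 2.9% of all genes. Foxp3 and CD4 cells were not set against each other for this rule, and Isg20 was also higher in Tc1 Foxp3 than in Tc1 CD4 cells, which had 94.7 CPM.

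In Tc9, with too few macrophages for the rule, 9 members set fibroblasts apart. At 9 of 38 this is near the 23% of all genes that did so and is not a result about the members. They were Ifi204 at 153 CPM, Slfn5 at 309, Bst2 at 209, Ifih1 at 50.9, Ifit1 at 45.4, Oasl2 at 43.6, Usp18 at 29.1, Ifit2 at 18.2 and Ifit3 at 14.5. These rest on 63 barcodes and, for Ifit3 and Ifit2, on 8 and 10 UMIs. With gates of at least 20 barcodes compared, Ifi204 alone was left, while 8.32% of all genes met the rule. Ifi204 was at 2.37 CPM in the Tc9 NK gate and 37.6, from 2 UMIs, in the 26 Tc9 macrophages, and in both libraries its highest level was outside the T cells.

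**Figure D2:**
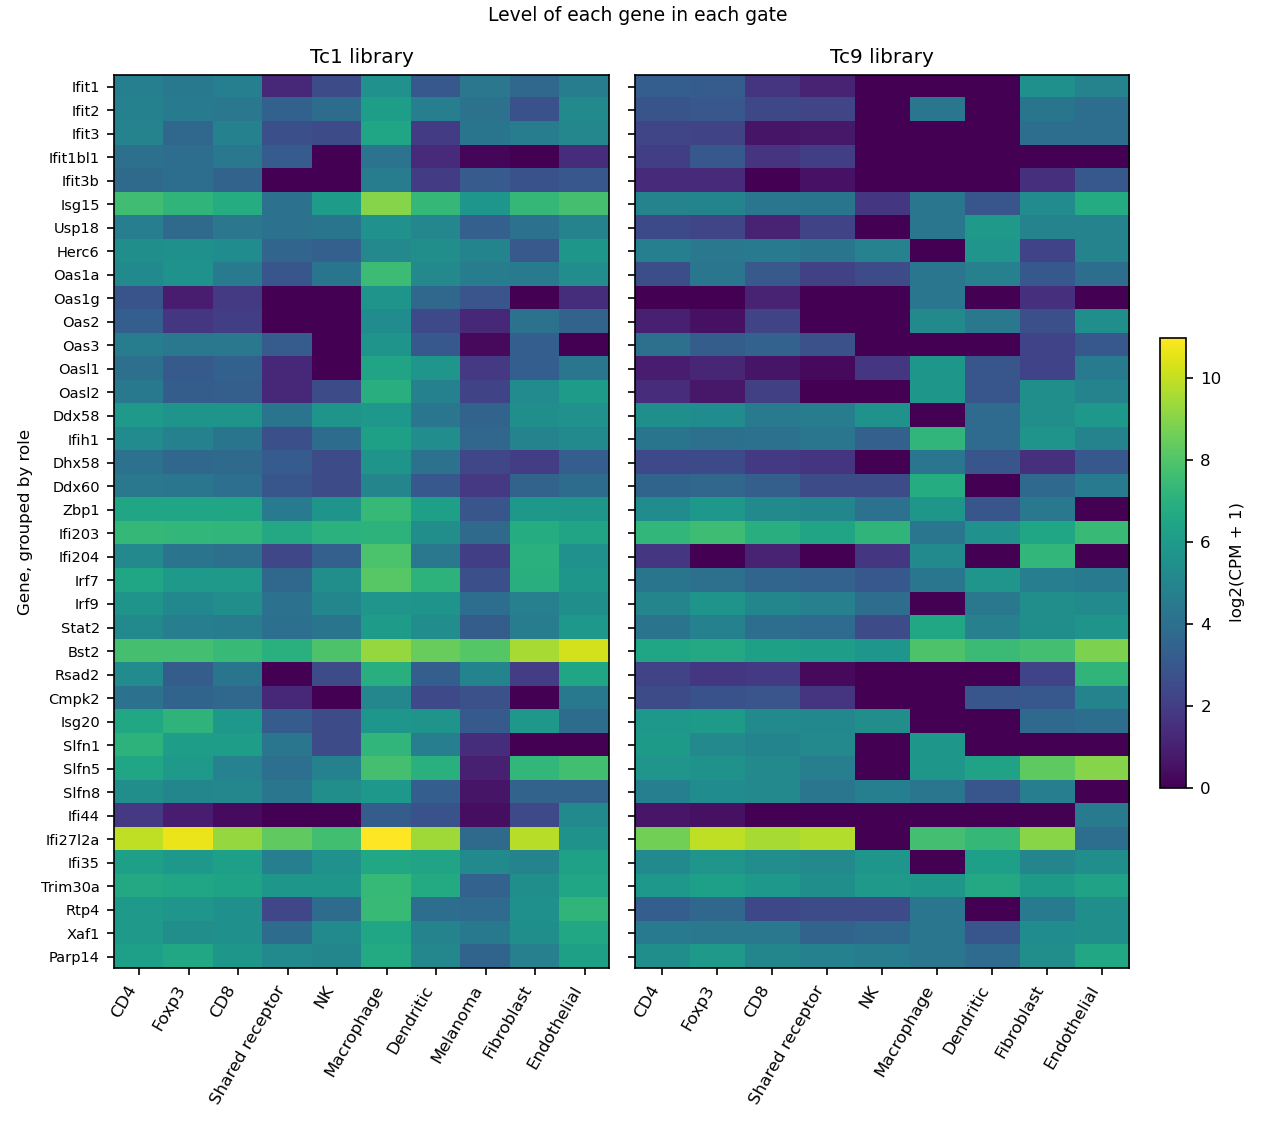
Level of each gene (rows, grouped by role) in each gate (columns) as log2(CPM + 1), Tc1 left and Tc9 right. The macrophage column is the brightest of Tc1 for 30 of the 38 genes, a count not made over all genes. Ifi27l2a and Bst2 are bright in most columns, and the Tc9 panel has no melanoma column because that gate was empty.

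In CD4 cells the interferon response was lower in Tc9 than in Tc1 across nearly the whole list. Of the 32 members with a mean of at least 10 CPM over the 2 libraries, 29 were lower in Tc9 by at least 1.5-fold, 0 were higher and 3 lay between. Among all 7798 genes at that level 17.7% were lower and 6.68% higher by the same rule. The median log2 ratio, Tc9 over Tc1, was -1.22 over the members and -0.12 over all genes. The summed level fell by 1.23 on the log2 scale (interval -1.25 to -1.20), from 3081 to 1318 CPM.

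Among the members of at least 10 CPM, Ifi204, Oasl2, Rsad2, Ifit3, Rtp4 and Oas1a had the 6 largest differences. All 6 were under 10 CPM in Tc9 and reached the mean through Tc1, as did Ifit1, Ifit2, Usp18, Cmpk2 and Dhx58. Ifi204 was at 35.7 CPM in Tc1 and 2.31 in Tc9, a log2 ratio of -3.95 (-4.42 to -3.50). Oasl2 was at 20.9 and 1.63 CPM (log2 ratio -3.68), and Rsad2 at 38.4 and 3.81 CPM (-3.33). None of these genes was common in CD4 cells: in Tc1 a UMI of Ifi204 was found in 6.44% of barcodes and in Tc9 in 0.81%. Ifit3 stood at 29.2 CPM in Tc1 and 3.86 in Tc9 (log2 ratio -2.92), Rtp4 at 61.1 and 8.81 (-2.80), and Oas1a at 36.1 and 5.27 (-2.78). Ifit3 and its near copy Ifit3b, Oas1a and Oas1g, and Ifi204 and its neighbours share sequence, so how their reads were divided is uncertain.

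The Isg15 pathway and the 3 transcription factors were lower too. Isg15 was at 195 CPM in Tc1 and 29.7 in Tc9, a log2 ratio of -2.71 (-2.85 to -2.57), and its UMIs were found in 25.2% and 7.63% of CD4 barcodes. Usp18, the protease that removes ISG15 and damps the receptor, had a ratio of -2.45, and Herc6, the mouse ISG15 ligase, of -0.75. Among the factors Irf7 went from 86.4 to 18.7 CPM (log2 ratio -2.21), Stat2 from 37.5 to 17.7 (-1.08) and Irf9 from 51.2 to 30.7 (-0.74). Ifit1 was at 25.6 and 8.90 CPM (log2 ratio -1.52), and Bst2 at 215 and 89.7 (-1.26). Ifi27l2a, the largest part of the sum, stood at 999 CPM in Tc1 and 404 in Tc9 (-1.31).

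At the other end, Ifi203 differed least between the libraries. This DNA-binding protein of the same gene cluster as Ifi204 was at 161 CPM in Tc1 and 154 in Tc9 CD4 cells, a log2 ratio of -0.07 (-0.17 to 0.04). Ddx58, the RNA sensor RIG-I, was at 59.5 and 43.4 CPM (log2 ratio -0.45) and Oas3 at 23.8 and 15.9 (-0.58), both short of 1.5-fold. Isg20 at 94.7 and 57.0 CPM, Slfn8 at 42.9 and 25.7 and Irf9 were just past it, at -0.73, -0.74 and -0.74. Another 6 members were under the level of 10 CPM, Oas1g, Oasl1, Oas2, Ifit3b, Ifit1bl1 and Ifi44, and each was lower in Tc9. Oas1g had 35 UMIs in Tc1 and 0 in Tc9, but of its 6.31 CPM in Tc1 4.56 were expected from free RNA of other cells, so no fold is given.

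By role, the members of at least 10 CPM that were lower in Tc9 CD4 cells were 3 of 3 Ifit genes, 3 of 3 of the Isg15 pathway, 2 of 3 oligoadenylate synthetases and 5 of 7 nucleic acid sensors. All 3 transcription factors, all 4 membrane and nucleotide-acting genes, all 3 Schlafen genes and 6 of 6 remaining genes were lower too. The median ratios were most negative for the synthetases (-2.78), the Isg15 pathway (-2.45) and the Ifit genes (-2.15), and nearest to 0 for the Schlafen genes (-0.79). Over all members with a promoter window, those under 10 CPM included, the 18 with the motif had a median ratio of -1.17 and the 12 without it -1.59. The more negative median was thus not on the side of the motif.

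RNA of other cells also differed between the CD4 gates. Macrophage markers summed to 1598 CPM in Tc1 CD4 cells and 30.4 in Tc9, and haemoglobin RNA to 2666 and 0.136 CPM. From the macrophage RNA, free RNA was estimated at 14.4% of the Tc1 CD4 UMIs and 21.7% of the UMIs of the 38 genes, and at 2.898% and 3.36% in Tc9. The expected part was largest for genes of the macrophage gate: 21.6 of the 35.7 CPM of Ifi204 and 11.1 of the 20.9 CPM of Oasl2, against 13.6 of the 161 CPM of Ifi203. With this part subtracted, 26 of 29 members were lower in Tc9, beside 15.3% of all genes, and the median ratio was -1.08. The subtraction left some RNA of other cells. After it 2 macrophage markers still reached a mean of 10 CPM, with a median log2 ratio of -8.03, and 3 red cell markers did, at -9.92. In CD4 barcodes with 0 UMIs of the macrophage, melanoma and haemoglobin genes named above, 251 in Tc1 and 3464 in Tc9, 21 of 30 were lower and the median was -1.02. Among all genes there 18.5% were lower. Some macrophage RNA was left in these barcodes: 1 other macrophage marker reached a mean of 10 CPM, with a log2 ratio of -4.91, and in the CD8 gate 1 did, at -3.38. In these barcodes Isg15 was at 123 and 30.6 CPM (log2 ratio -2.01, -2.30 to -1.70), Ifit1 at 24.99 and 8.96 (-1.48), and Bst2 at 128 and 89.99 (-0.51), short of 1.5-fold.

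**Figure D3:**
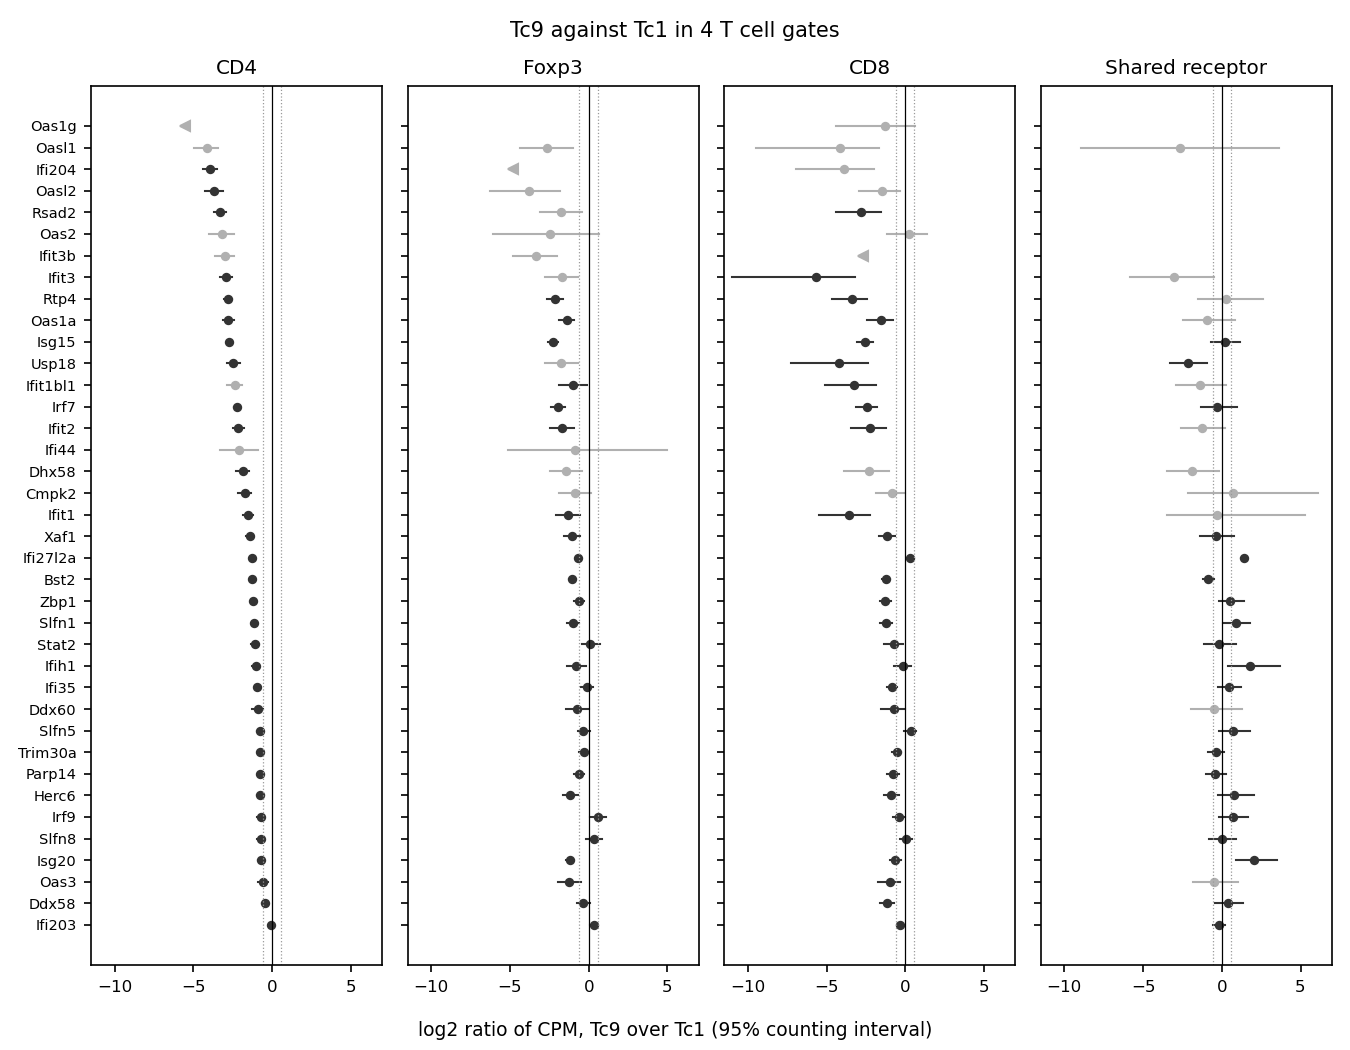
Log2 ratio of CPM, Tc9 over Tc1, for the 38 genes in 4 T cell gates, in the order of the CD4 ratios; bars are 95% counting intervals, dotted lines mark 1.5-fold, grey points have a mean under 10 CPM and triangles are bounds for a gene at 0 in Tc9. Nearly all points lie left of 0 in the CD4 gate, most do in the Foxp3 and CD8 gates, and the shared-receptor points lie on both sides of 0.

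In Foxp3 cells most members were lower in Tc9, but the factors Stat2 and Irf9 were not. Of 26 members at the level, 18 were lower, 0 higher and 8 between, while 23.5% of all genes were lower and 17.4% higher. The median ratio was -0.91 over the members and -0.06 over all genes. Isg15 was at 144 CPM in Tc1 and 30.4 in Tc9 (log2 ratio -2.25, -2.57 to -1.93), Irf7 at 60.5 and 15.7 (-1.95), Ifit1 at 20.7 and 8.26 (-1.32) and Bst2 at 207 and 99.3 (-1.06). Oas1a was at 49.8 and 18.8 CPM (-1.41) and Isg20 at 143 and 62.4 (-1.20), but in barcodes without UMIs of other cells Isg20 was at 40.5 and 63.7 CPM (0.66, -0.41 to 1.98). Stat2 was at 25.3 and 27.3 CPM (log2 ratio 0.11, -0.45 to 0.71) and Irf9 at 33.7 and 50.4 (0.58, 0.11 to 1.08), neither past 1.5-fold. Ifit3, at 12.3 and 3.72 CPM, and Oasl2, at 8.42 and 0.62, were under the level. Ifit1 reached the level through Tc1. Macrophage markers stood at 1023 CPM in Tc1 and 30.8 in Tc9 Foxp3 cells. Without barcodes holding UMIs of other cells only 21 Tc1 Foxp3 barcodes were left, in which 10 of 24 members were lower in Tc9 and 5 higher, with a median of -0.40. In that setting 28.3% of all genes were lower and 26.6% higher.

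In CD8 cells most members were lower in Tc9, while Ifi27l2a was not. Of 29 members 22 were lower in Tc9, 0 higher and 7 between, against 22.3% of all genes lower and 16.1% higher, with medians of -1.14 and -0.06. Ifit3 was at 27.4 CPM in Tc1 and 0.53 in Tc9, the latter a single UMI, and its log2 ratio of -5.69 had an interval of -10.99 to -3.20. Ifit1 was at 25.7 and 2.13 CPM (-3.59, -5.47 to -2.22), Isg15 at 112 and 19.2 (-2.54, -3.06 to -2.07) and Irf7 at 60.7 and 11.2 (-2.44). Among others with ratios below that of Isg15 were Usp18 (-4.21, with 2 UMIs in Tc9), Rtp4, at 45.2 and 4.27 CPM (-3.41), and Rsad2 (-2.79). Ifit3, Ifit1, Usp18, Rtp4 and Rsad2 were under 10 CPM in Tc9 and reached the mean through Tc1. Bst2 was at 175 and 74.1 CPM (-1.24) and Stat2 at 24.7 and 14.9 (-0.72). Irf9, at 42.0 and 32.0 CPM (-0.39), lay within 1.5-fold, Oasl2 was under the level at 9.03 and 3.20 CPM, and Ifi27l2a was at 619 CPM in Tc1 and 764 in Tc9 (0.30, 0.22 to 0.38). The sum of the other 37 genes had a ratio of -1.07 (-1.15 to -0.99), against -0.52 with Ifi27l2a. The cells of the gate were not alike in the libraries: Cd8a stood at 474 CPM in Tc1 and 207 in Tc9, and macrophage markers at 778 and 113. The part of these differences in the result was not tested, and in barcodes without UMIs of other cells, 415 and 197, 24 of 28 members were lower, beside 22.2% of all genes.

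Of the 25 members at the level in all 3 gates, 14 were lower by at least 1.5-fold in each, as were 622 of 7350 genes. They were Ifit1, Ifit2, Isg15, Isg20, Oas1a, Irf7, Bst2, Rtp4, Zbp1, Xaf1, Slfn1, Parp14, Herc6 and Ddx60. Ifi203 was the 1 member within 1.5-fold in all 3 gates. The gates of a library share its preparation and free RNA, so they do not repeat the comparison independently.

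The shared-receptor cells went the other way in sum, at 933 CPM in Tc1 and 1424 in Tc9, a log2 ratio of 0.61 (0.50 to 0.73). This rested on Ifi27l2a, which stood at 317 CPM in Tc1 and 842 in Tc9 (1.41, 1.22 to 1.61) and made up 59.1% of the Tc9 sum. The other 37 genes summed to 616 CPM in Tc1 and 582 in Tc9 (-0.08, -0.23 to 0.06), so that without Ifi27l2a the sum was not higher. Of 20 members at the level 7 were higher in Tc9, 2 lower and 11 between, and the all-gene shares were 22.3% and 27.5%. This tilt depended on the minimum level: without it 8 of 31 members were higher, 8 lower and 15 between, and the median ratio was -0.20 in place of 0.29. Isg20 was at 8.16 and 34.0 CPM (2.06, 0.90 to 3.53) and Ifih1, the RNA sensor MDA5, at 5.44 and 18.9 (1.79, 0.39 to 3.70). Bst2 was lower, at 126 and 69.8 CPM (-0.86, -1.20 to -0.51), and so was Usp18, at 16.3 and 3.73 (-2.13). Isg15, at 16.3 and 18.4 CPM, Irf7, at 12.2 and 10.1, and Stat2, at 14.96 and 13.4, had intervals that included 0, as did Irf9 at 16.3 and 26.3. The Tc1 levels come from 48 barcodes, with 6 UMIs for Isg20 and 4 for Ifih1, and Ifit1, Ifit3 and Oasl2 had at most 5 UMIs in either library. Isg20 and Ifih1 reached the mean of 10 CPM through Tc9, and Usp18 through Tc1. Isg15 in the Tc1 shared-receptor cells was also far under its 112 CPM in the Tc1 CD8 gate.

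Gates outside the T cells had few barcodes in at least 1 library. In NK cells, 29 and 52 barcodes, 11 of 19 members were lower in Tc9 and 2 higher, against 28.8% and 23% of all genes. Markers of other cells differed in this gate too, and their part was not tested. Macrophage markers summed to 356 CPM in Tc1 and 7.12 in Tc9, and markers of plasmacytoid dendritic cells to 143 and 4.74. In macrophages, 2146 and 26 barcodes, 24 of 29 were lower and 2 higher, against 17.7% and 49% of all genes, with Isg15 at 519 CPM in Tc1 and 18.8 in Tc9. The 26 Tc9 macrophage barcodes had a median of 1762.5 UMIs against 7680 in Tc1, and that 18.8 CPM is a single UMI. In dendritic cells, 59 and 25 barcodes, 15 of 26 were lower and 2 higher (18.5% and 42.9% of all genes). Fibroblasts, 34 and 63 barcodes, were split, with 10 lower and 9 higher of 27 (20.4% and 33.4%), and in endothelial cells, 36 and 22 barcodes, 15 of 31 were lower and 5 higher (26.1% and 33.2%). Ifit1 was at 11.9 CPM in Tc1 and 45.4 in Tc9 fibroblasts, opposite in direction to its values in the T cells.

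The number of members with a UMI was also counted in each cell. Each barcode was thinned to 2000 UMIs, which left out 98 of 1243 Tc1 and 100 of 3694 Tc9 CD4 barcodes. The median Tc1 CD4 barcode then held UMIs of 3 members and the median Tc9 one of 1, while 7.69% of Tc1 and 19.3% of Tc9 barcodes held none. At least 5 members were found in 24.2% of Tc1 CD4 barcodes (21.7 to 26.8%) and 5.95% of Tc9 ones (5.20 to 6.78%), and without thinning in 51.3% and 36.2%. These counts include free RNA, expected to give 21.7% of the members' UMIs in Tc1 CD4 cells and 3.36% in Tc9, and its part in the shares was not tested. In Foxp3 cells the thinned shares were 32.2% and 10.3%, and in CD8 cells 19.9% and 5.50%. Shared-receptor cells had 6.25% (1.31 to 17.2%) and 2.50% (1.30 to 4.33%), intervals that overlap, whereas their summed level was higher in Tc9.

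After thinning, the top 10% of CD4 barcodes by UMIs of the members held 39.6% of those UMIs in Tc1 and 42.7% in Tc9. Without thinning the order was the reverse, at 50.2% in Tc1 and 42.4% in Tc9. In the thinned counts single CD4 barcodes reached 23 of the 38 genes in Tc1 and 22 in Tc9. The macrophage share in Tc1 was 54.0% (51.8 to 56.2%) and that of melanoma cells 3.16% (1.04 to 7.23%).

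**Figure D4:**
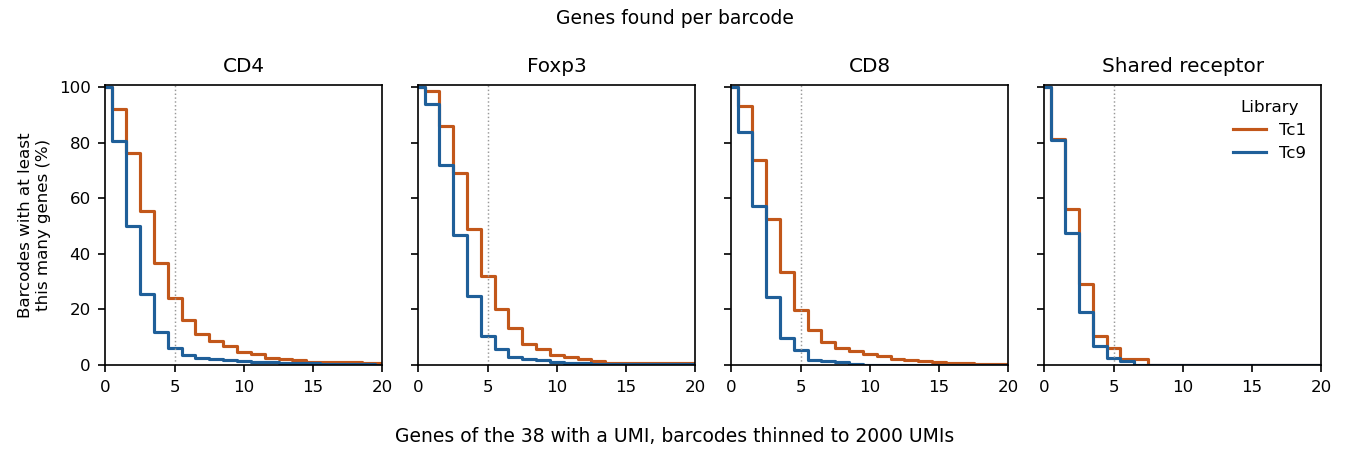
Percent of barcodes (vertical axis) in which at least a given number of the 38 genes (horizontal axis) had a UMI after thinning to 2000 UMIs, for Tc1 (orange) and Tc9 (blue) in 4 T cell gates; the dotted line marks 5 genes. At that line Tc1 stands at 24.2% and Tc9 at 5.95% in the CD4 gate, and the lines of the shared-receptor gate run close together.

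The interferons themselves were rarely detected. Ifnb1 had 3 UMIs in Tc1 CD4 cells and 0 in Tc9, and 44 UMIs in Tc1 macrophages, the gate in which it was seen most. Ifna1, Ifna2, Ifna4, Ifna5, Ifne, Ifnl2 and Ifnl3 were at 0 in all gates, and Ifnk had 1 UMI in macrophages. In the Tc9 CD4 gate 3 UMIs, the floor used for a count of 0, correspond to 0.136 CPM. This bound allows for counting error alone and is not one of the 95% intervals. Ifng, the type II interferon, was at 94.8 CPM in Tc1 and 78.7 in Tc9 CD4 cells (log2 ratio -0.27), at 143 and 67.2 in CD8 cells (-1.09) and at 767 and 84.9 in shared-receptor cells (-3.18, -3.37 to -2.99).

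Receptor and signal genes of the pathway were near the background in CD4 cells. Of 8 such genes 2 were lower and 1 higher in Tc9, with a median ratio of -0.19, against 17.7% and 6.68% of all genes and a median of -0.12. The receptor chain Ifnar1 was at 64.9 CPM in Tc1 and 64.2 in Tc9 (-0.02, -0.18 to 0.15), and Ifnar2 at 134 and 71.5 (-0.91). Among the receptor and signal genes for interferon-gamma, Ifngr2 had a ratio of -1.28 and the kinase Jak2 of 1.16, at 132 CPM in Tc1 and 295 in Tc9. Jak2 was also higher in Tc9 in the Foxp3 (1.09), CD8 (2.21) and shared-receptor (2.26) gates.

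The lists of further factors, inhibitors and sensors each had 1 or 2 lower genes of 6, beside 17.7% of all genes, and lists so short are not told apart from that share. Of 6 further interferon regulatory factors 2 were lower and 1 higher in Tc9 CD4 cells. Irf8 was at 48.5 and 9.08 CPM (-2.42), Irf5 had a ratio of -1.66, Irf4, a factor of activated T cells, of 0.66, and Irf2 and Irf1 of -0.24 and -0.22. In CD4 barcodes without UMIs of other cells the ratios of Irf8 and Irf5 were -1.84 and -0.99. The inhibitors had 1 lower gene of 6, Socs1 (-0.62), with Ptpn6 at -0.54, Ptpn2 at 0.28 and Pias4 at -0.23. Among 6 sensors at the level 1 was lower, Myd88 (-0.91), while Tmem173, which encodes STING, was at -0.29, Adar at -0.28 and Samhd1 at -0.27.

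Most interferon-induced genes outside the list were lower in Tc9 CD4 cells, where macrophage markers also differed, at 1598 CPM in Tc1 and 30.4 in Tc9. Of 38 such genes at the level, from 45 analysed, 25 were lower in Tc9 CD4 cells and 0 higher, with a median of -0.80. Among all genes 17.7% were lower and 6.68% higher. In barcodes without UMIs of other cells 18 of 35 were lower and 0 higher (median -0.59), against 18.5% and 6.70% of all genes there. With free RNA subtracted, which left some RNA of other cells, 21 of 35 were lower (median -0.68), against 15.3% of all genes. Ifi207 was at 42.5 CPM in Tc1 and 0.27 in Tc9 (-7.29), Ifi211 at 34.3 and 2.41 (-3.83), Ms4a4c at 76.4 and 6.08 (-3.65), and Ifitm3, which blocks viral entry, at 563 and 79.0 (-2.83). In barcodes without UMIs of other cells Ifitm3 was at 225 and 79.9 CPM (-1.49) and Ifi207 at 16.3 and 0.24 (-6.06). Ifi207 and Ifi211 lie in the Ifi203 family and share sequence, so their division of reads is uncertain. Of 17 genes of the interferon-gamma response, which overlaps the type I response, 13 were lower and 0 higher, with a median of -0.74, against 17.7% and 6.68% of all genes. In barcodes without UMIs of other cells 12 of 17 were lower (-0.84), against 18.5% of all genes there. Iigp1 had a ratio of -2.19, Gbp5 of -1.29, Tgtp1 of -1.28 and Irgm2 of -1.21, all of them guanosine triphosphate-binding proteins. In Foxp3 cells 6 of 17 of this second list were lower and 3 higher with a median of -0.08, and 18 of 40 of the first list were lower and 2 higher with a median of -0.47, against 23.5% of all genes lower and 17.4% higher. In the 21 Tc1 Foxp3 barcodes without UMIs of other cells and their Tc9 counterparts, 5 of 17 of the second list were lower and 7 higher, and 10 of 36 of the first list were lower and 5 higher. Among all genes in that setting 28.3% were lower and 26.6% higher, so the lower counts of both lists were near that share.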

How the data were processed

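The RNA values were counts of UMIs per gene and barcode, deposited by the authors as filtered matrices. They were made with Cell Ranger 7.0.0 against mm10 (GRCm38), per the submitters' processing notes. The receptor files as deposited by the authors give contigs with V and J genes and CDR3 sequences, and were used only to mark barcodes with a shared beta chain. All 38 gene names matched a matrix row exactly once, and 0 value columns were left unmapped. Gene spans were those of RefSeq, and promoter windows were on GRCm38.p6.

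A barcode was kept when it had 500 genes or more and mitochondrial UMIs of no more than 10%. T cells needed a Cd3 UMI and were split by the shared chain, Cd4, Cd8a or Cd8b1, and Foxp3. Other gates needed 0 Cd3 UMIs and a number of their markers. No doublet caller was used, and barcodes that met the rules of a pair of classes, 1857 in Tc1 and 64 in Tc9, were left out. A further 2025 and 2663 T barcodes and 1931 and 276 others met no gate. UMIs were summed per gate and divided by the gate's total (CPM), and the log2 ratio, Tc9 over Tc1, was given an exact conditional interval. These intervals treat UMIs of a cell as independent and come out too narrow where few cells hold much of a gene's RNA. A gene at 0 in 1 library entered medians at a floor of 3 UMIs, or was left out where that bound gave no direction. Differences of at least 1.5-fold were counted at a mean of at least 10 CPM, in gates of at least 50 barcodes in both libraries, and smaller gates of at least 20 barcodes were added after their sizes were seen. Shares have Clopper-Pearson intervals. Expected free RNA was the summed profile of non-T barcodes of the same library (4387 in Tc1 and 412 in Tc9), scaled by C1qa, C1qb, C1qc, Lyz2 and Apoe.

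Every member was accounted for. Values were printed for the 6 largest and 6 smallest CD4 ratios at the level, for each member that set a gate apart, for Isg15, Ifit1, Ifit3, Irf7, Irf9, Stat2, Bst2 and Oasl2 in each compared gate, and for up to 4 genes of each pathway list with a few genes in every case, of which 1 is not reported here. Any other gene named was picked with its values in view. The members, lists and rules were chosen with earlier results of these data known. Sums without Ifi27l2a and pathway lists without other cells' RNA were added after seeing the data. Alternatives covered scaling (TMM in edgeR 4.0.16, median ratio), the minimum level, barcode filters, cell weighting, gate strictness, free RNA, depth and the shared-chain rule. The calculations were made in Python 3.11.15 with numpy 2.4.6, scipy 1.17.1 and pandas 2.3.3. Only the log2 ratio, its interval and the 1.5-fold call were tested on simulated data, with independent counts built from the Tc1 CD4 gate. That simulation held no differences between cells, and the other steps were not tested in this way. Libraries held 106053410 UMIs in Tc1 and 50713493 in Tc9.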

Additional observations from a re-analysis of the deposited data

Results flagged for a closer look

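The T cell gates differed in direction between Tc9 and Tc1, and the difference between gates was not tested. The summed level of the 38 genes had a log2 ratio, Tc9 over Tc1, of -1.23 in CD4, -0.72 in Foxp3 and -0.52 in CD8 cells, and of 0.61 in shared-receptor cells. Without Ifi27l2a the ratio of the sum was -0.08 (-0.23 to 0.06) in shared-receptor cells, and -1.19 in CD4, -0.74 in Foxp3 and -1.07 in CD8 cells. In barcodes without UMIs of other cells the Foxp3 sums of the 38 genes were close, at 2347 CPM in the 21 Tc1 barcodes and 2124 in Tc9. The sums there were 2484 and 1325 CPM in CD4 cells and 2260 and 1425 in CD8 cells. Of the 20 members of at least 10 CPM in both gates, 7 were lower by at least 1.5-fold in Tc9 CD4 cells and higher by as much in Tc9 shared-receptor cells, as were 98 of 7166 genes. In the shared-receptor gate alone, 22.3% of all genes were higher, and with no minimum level 8 of 31 members were higher there and 8 lower. The 7 were Isg20 (-0.73 in CD4 and 2.06 in shared-receptor cells), Ifi27l2a (-1.31 and 1.41), Irf9 (-0.74 and 0.69), Ifih1 (-1.06 and 1.79), Slfn5 (-0.79 and 0.73), Slfn1 (-1.13 and 0.89) and Herc6 (-0.75 and 0.78). The Tc1 shared-receptor gate has 48 barcodes, and the counting intervals of Irf9, Slfn5 and Herc6 in that gate include 0. Isg20 and Ifih1 were under 10 CPM in the Tc1 part of that gate and reached the mean through Tc9. Cd4, Cd8a and Foxp3 levels of the gate also differed between the libraries, as given above, and their part in the result was not tested.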

How the results depend on the processing

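In the CD4, Foxp3 and CD8 gates the median ratio stayed negative under each of 10 alternatives, from -1.48 to -0.93, -1.08 to -0.40 and -1.25 to -1.03. The number of lower members ranged from 11 to 35, 7 to 29 and 5 to 29. The shared-chain rule is among the 10 but left the barcode numbers, counts and medians of these gates as they were. With no minimum level the Foxp3 count was 29 of 37, with medians of -1.08 over the members and -0.17 over all genes. At a mean of at least 50 CPM fewer genes were counted. There 11 of 13 were lower in CD4, 7 of 11 in Foxp3 and 5 of 8 in CD8 cells. The member medians there were -0.93, -0.63 and -1.03, beside all-gene medians of 0.02, 0.04 and 0.02. For the counts at other minimum levels or scalings no share of all genes is given, so they are not set against a background share. In barcodes without macrophage, melanoma or haemoglobin UMIs the Foxp3 count was 10 of 24, on 21 Tc1 barcodes, beside 28.3% of all genes. TMM scaling moved the all-gene median of CD4 cells from -0.12 to 0.15. It left 22 of 32 members lower and 0 higher, with a member median of -0.95. In Foxp3 cells TMM gave 14 lower and 1 higher, with medians of -0.74 over the members and 0.11 over all genes. Scaling by the median ratio of genes gave 16 lower and 1 higher in Foxp3 cells, with a member median of -0.85. Members that set a gate apart numbered 27 in Tc1 and 16 in Tc9 at 1.5-fold, and 8 and 6 at 3-fold. No share of all genes stands beside these counts, so they are not results about the members. At the main 2-fold, 9 of the 10 Tc9 members were for fibroblasts, where 23% of all genes also met the rule. The comparison with gates of at least 20 barcodes was picked with the data already in view. Under it, members meeting the rule numbered 8 for Tc1 macrophages, 0 for Tc9 Foxp3 cells and 1 for Tc9 fibroblasts. The main counts were 13, 1 and 9. Shares of barcodes with at least 5 members, thinned to 1000 and to 3000 UMIs, were 10.3% and 39.8% in Tc1 CD4 cells, 10.1% and 49.2% in Foxp3 and 7.28% and 36.7% in CD8 cells, and in Tc9 2.49% and 12.5%, 2.76% and 25.7%, and 0% and 12.7%. No paired analysis was possible because each group had 1 RNA library. Depth limits the gates of fewer than 50 barcodes and the members under 10 CPM.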
